A study of Mus musculus with 2 samples.

Results

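The genes described are 10 receptors and ligands through which fibroblasts take up growth factor signals: the PDGF receptors Pdgfra and Pdgfrb, the FGF receptor Fgfr1, the IGF receptors Igf1r and Igf2r, the HGF receptor Met, the PDGF ligands Pdgfa and Pdgfc, and the FGF ligands Fgf2 and Fgf7. They were chosen by gene name as the mesenchymal growth factor axis, and all 10 were found among the 22838 genes of the deposited table. Messenger RNA came from NIH3T3 cells, an established line of mouse embryo fibroblasts. There was 1 library of cells given 100 µM ALA for 16 h and 1 library of untreated cells, and no other allele or agent is named. ALA is not spelled out, but the series title concerns heme, and in that field it usually means δ-aminolevulinic acid, the precursor from which cells build heme. Since neither group has a second library, no p-value is given, and a difference between cultures cannot be told apart from an effect of ALA. NIH3T3 is 1 clonal line, so other fibroblasts are not covered.

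PDGF, FGF, IGF and HGF are secreted proteins that bind receptor tyrosine kinases on the cell surface. Ligand binding brings the kinase domains of a receptor pair together, they phosphorylate each other, and the phosphorylated tails recruit adaptors that start the RAS and MAPK cascade and the PI3K and AKT cascade, which drive fibroblasts to divide, migrate and survive. PDGF-A and PDGF-C act mainly through PDGFRα, FGF2 through FGFR1, and FGF7 through an epithelial splice form of FGFR2, so that FGF7 from fibroblasts acts on neighbouring epithelium. IGF2R stands apart from the other receptors, since it has no kinase: it removes IGF2 from the surface and carries enzymes tagged with mannose 6-phosphate to lysosomes.

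Of the 10 genes, Pdgfa was at least 1.5-fold higher in the ALA library, Fgf2 and Pdgfra were at least 1.5-fold lower, and the other 7 differed by less. The ligand Pdgfa and its receptor Pdgfra thus differed in opposite directions, while the second PDGF receptor, Pdgfrb, had nearly the same level in both libraries. The calls use log2((ALA FPKM + 1)/(untreated FPKM + 1)), where FPKM is the number of fragments per kilobase of transcript, scaled to the mapped fragments of a library. All log2 ratios have the added 1, which pulls the ratios of low genes toward 0. Folds are given without it. Among the 10929 measured genes, those with a mean of at least 1 FPKM over both libraries, 5.9% passed 1.5-fold upward and 7.16% passed it downward, and the median log2 ratio was -0.02. All 10 growth factor genes passed that filter. The 1 gene called higher and the 2 called lower are 10% and 20% of the 10 genes, and counts so small set no rate beside these backgrounds. None reached 2-fold in either direction on this scale, which 1.49% of measured genes did upward and 2.01% downward. The median over the 10 genes was -0.19, with 2 genes higher and 8 lower. Over all measured genes 5222 were higher and 5707 lower, or 47.8% higher. This share stands beside every count of direction below. With equal library totals the median over all measured genes was 0.05, so counts of direction depend on the scaling.

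**Figure D1:**
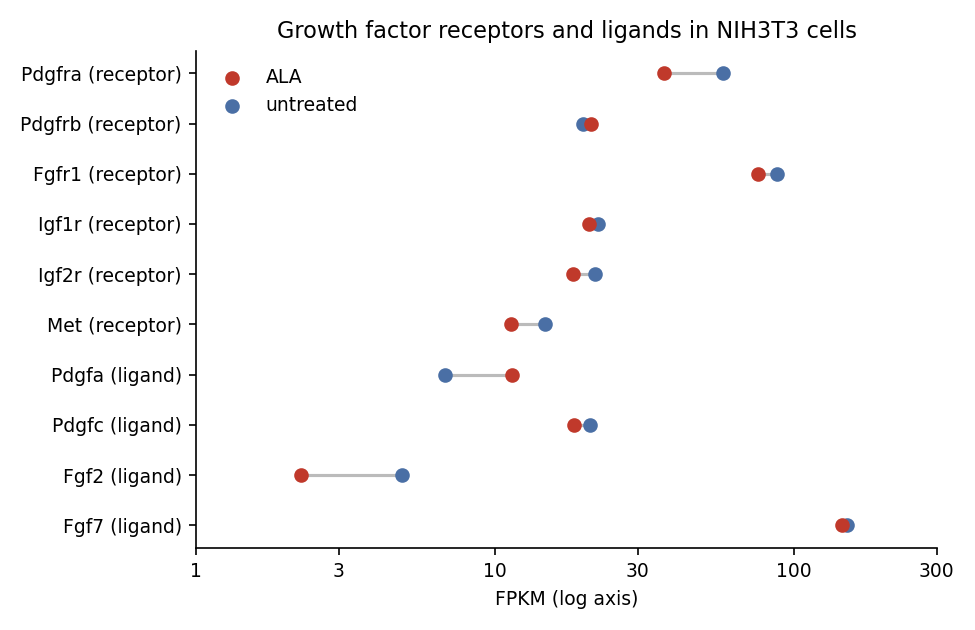
FPKM of the 10 genes (log axis) in the ALA library (red) and the untreated library (blue), 1 library each, with a grey line joining the values of a gene. Pdgfa lies higher with ALA, Pdgfra and Fgf2 lie lower, and Fgf7 is the highest gene in both libraries, at 144 and 150.2 FPKM.

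The depth of the libraries was estimated from the steps between low FPKM values at about 27000000 reads for the ALA library and about 20000000 for the untreated library. The 95% counting intervals given with log2 ratios rest on that estimate. They are approximate, cover counting error only and take reads as independent molecules. In the plot of log2 ratios they are far narrower than the spread between genes for the receptors, and wide for Fgf2 and Pdgfa.

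**Figure D2:**
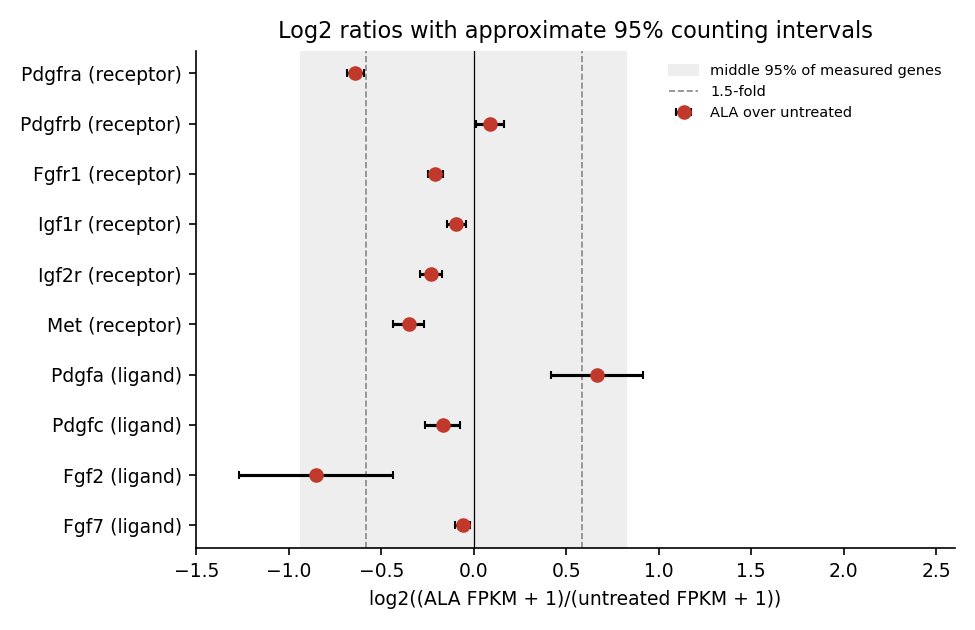
Log2 ratio of ALA over untreated for each gene (points) with its approximate 95% counting interval (bars), over the range that holds the middle 95% of measured genes (grey, -0.93 to 0.83) and the 1.5-fold lines (dashed). All 10 points lie inside the grey range, and the 3 genes past a dashed line are Pdgfra, Pdgfa and Fgf2.

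The stretches before the start sites of Pdgfra and Pdgfa, a receptor and its ligand that differed in opposite directions, are shown beside that of Fgf7, the most abundant of the 10 genes, whose level differed least. Each is written 5′ to 3′ on the strand of its gene, from RefSeq on GRCm38.p6, and capitals mark CG dinucleotides.
Pdgfra, chr5:75152001-75152250, plus strand: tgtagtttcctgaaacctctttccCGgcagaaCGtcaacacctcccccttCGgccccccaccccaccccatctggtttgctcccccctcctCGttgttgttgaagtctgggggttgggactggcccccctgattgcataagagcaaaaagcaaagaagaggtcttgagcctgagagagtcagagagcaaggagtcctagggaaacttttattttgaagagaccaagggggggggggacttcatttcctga
Pdgfa, chr5:138995038-138995194, minus strand: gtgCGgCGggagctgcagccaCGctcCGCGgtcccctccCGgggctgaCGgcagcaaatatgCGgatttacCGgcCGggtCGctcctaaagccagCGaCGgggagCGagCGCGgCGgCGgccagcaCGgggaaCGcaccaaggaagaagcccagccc
Fgf7, chr2:126034408-126034657, plus strand: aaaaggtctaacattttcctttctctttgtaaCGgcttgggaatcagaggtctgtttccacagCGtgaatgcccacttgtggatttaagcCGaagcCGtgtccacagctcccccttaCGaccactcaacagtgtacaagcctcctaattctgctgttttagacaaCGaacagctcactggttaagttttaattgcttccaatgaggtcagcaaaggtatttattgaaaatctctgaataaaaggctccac

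Each sequence starts 250 bases before the RefSeq start site. That of Pdgfa is given only as far as the first exon base of a longer GENCODE transcript, after 157 bases, and Fgf2 is not printed because its whole window lies in such an exon. Over the full 250 bases, Pdgfa had a GC content of 72.4% and 28 CG dinucleotides, Pdgfra 54.4% and 4, Fgf7 43.6% and 6, and Fgf2 62.4% and 20. The median of 27025 RefSeq promoters was 52.0% with 6 CG dinucleotides, and 6.43% of promoters had more of them than Pdgfa. The genes past 1.5-fold thus included both CG-rich and CG-poor promoters. GGGCGG, the core of an SP1 site, was searched on both strands, as were all motifs here. It occurred 2 times before Pdgfa, 1 time before Fgf2 and 0 times before Pdgfra and Fgf7, and 32.9% of promoters hold it. GCGGGGGCG, a binding core of EGR1, occurred 1 time before Fgf2 and 0 times before the other 3 genes (2.56% of promoters). TGACNNNGC, the core of an antioxidant response element, occurred 1 time before Fgf2 (10.1%). The hypoxia response core ACGTG (16.6%), the AP-1 core TGANTCA (6.87%) and TATAAA (12.97%) had 0 matches before these 4 genes. A match describes letters in a window and shows no binding. Of the 10 genes 8 matched an entry of the promoter table, and matches were not particular to the 4 above. SP1 cores were also found before Igf1r, Igf2r and Met, with 2, 3 and 3 matches, the EGR1 core before Igf2r, with 1, and the antioxidant response core before Met and Pdgfc, with 1 each. The hypoxia response core occurred 4 times before Igf2r and 2 times before Met, and the AP-1 core 1 time before Met.

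Pdgfra encodes PDGFRα, the receptor for PDGF-A and PDGF-C, and marks many fibroblast lineages. It had 36.6 FPKM in the ALA library, against 57.6 FPKM in the untreated library, about 6744 and 7875 reads. It was 1.57-fold lower with ALA, with a log2 ratio of -0.64 and an interval of -0.69 to -0.59, and 6.08% of measured genes had a lower ratio. Scaling both libraries to the same total FPKM gave -0.56, short of the 1.5-fold line, so the call depends on the scaling. In bulk RNA, fewer cells that express a gene and less RNA per cell cannot be told apart, here and for every gene below. Pdgfra lies on the plus strand of chromosome 5 from 75152292 to 75198215 (GENCODE vM21 on GRCm38, the assembly that mm10 names), with 6834 bp in the 23 exons of its longest transcript. An antisense RNA, Gm42802, covers 4.55% of its exon bases.

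Pdgfrb, on the plus strand of chromosome 18 from 61045150 to 61085061, encodes PDGFRβ, which binds mainly PDGF-B and PDGF-D and is typical of pericytes and activated fibroblasts. It had 20.97 FPKM in the ALA library and 19.7 FPKM in the untreated library, about 3064 and 2134 reads, and shares 0 exon bases with another annotated gene. The log2 ratio was 0.09 with an interval of 0.01 to 0.16, and Pdgfrb was the one receptor of the 6 that was higher with ALA. Its 2 best known ligand genes, Pdgfb and Pdgfd, were listed at 0 in both libraries. Pdgfra made up 63.6% of the summed FPKM of both PDGF receptors with ALA, with an interval of 62.6% to 64.6%, against 74.5% in untreated cells, with an interval of 73.6% to 75.4%. The sum itself was 57.6 FPKM with ALA and 77.3 FPKM untreated, so the pair was lower in all with ALA while its smaller member was not.

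**Figure D3:**
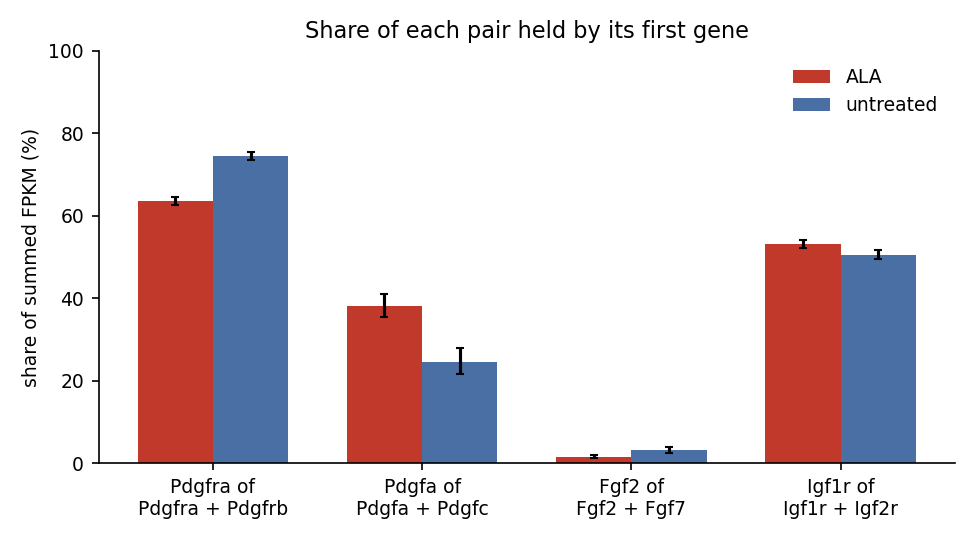
Share of the summed FPKM of a pair held by its first gene, in the ALA library (red) and the untreated library (blue), with approximate 95% counting intervals. Pdgfra held 63.6% and 74.5% of its pair, Pdgfa 38.2% and 24.6%, Fgf2 1.54% and 3.14%, and Igf1r 53.04% and 50.5%.

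Fgfr1, the main FGF receptor of fibroblasts, lies on the plus strand of chromosome 8 from 25513654 to 25575718 and was the most abundant of the 6 receptors. It had 75.8 FPKM with ALA and 87.7 FPKM untreated, above 90.6% and 91.9% of measured genes. The log2 ratio was -0.21, with an interval of -0.25 to -0.17. The antisense gene Gm16159, which shares 164 exon bases with Fgfr1, had 4.06 FPKM with ALA and 1.93 FPKM untreated. Those bases are 1.7% of the Fgfr1 exon sequence, and no strand setting is given, so their reads cannot be assigned with certainty. Of the other FGF receptors, Fgfr2 had 5.47 and 6.29 FPKM in the ALA and untreated libraries and the decoy receptor Fgfrl1, which has no kinase, 14.7 and 14.96 FPKM. Fgfr4 was listed at 0 in both libraries and Fgfr3 at 0.175 and 0 FPKM.

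Igf1r, on the plus strand of chromosome 7 from 67952827 to 68233668, encodes the kinase receptor for IGF1 and IGF2. It had 20.6 FPKM with ALA and 22.1 FPKM untreated, a log2 ratio of -0.10 with an interval of -0.15 to -0.04 that moved to -0.02 with equal library totals, so it has no firm direction. That scaling raises every ratio by up to 0.08, more than the counting intervals of the abundant genes allow for, and put Fgfr1 at -0.13 and Igf2r at -0.16. Igf2r had 18.2 FPKM with ALA and 21.6 FPKM untreated, a log2 ratio of -0.23 with an interval of -0.29 to -0.17. Both genes were close to each other in each library, Igf1r holding 53.04% of their sum with ALA and 50.5% untreated. The insulin receptor gene Insr, which can pair with Igf1r, had 7.63 and 8.83 FPKM. Transcripts of the ligands themselves were scarce: Igf1 had 0.0574 and 0.0265 FPKM and Igf2 0.0929 and 0.0576 FPKM with ALA and untreated.

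Igf2r sits in an imprinted region of mouse chromosome 17, at 12682406 to 12769664 on the minus strand. Airn, the antisense long non-coding RNA whose transcription silences the paternal copy of Igf2r in mouse tissues, starts inside Igf2r and is transcribed on the other strand. Airn had 5.36 FPKM with ALA and 2.29 FPKM untreated, a log2 ratio of 0.95 with an interval of 0.65 to 1.25. The deposited table gives Airn and Igf2r 1 merged locus, but their annotated exons share 0 bases. The Airn ratio passed 1.5-fold upward, beside an Igf2r ratio of -0.23. It rests on about 199 reads with ALA and 63 untreated. No strand setting is given, so reads where Airn runs inside Igf2r cannot be assigned with certainty. Whether the ratios of Airn and Igf2r are linked was not tested.

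Met, the receptor for HGF (hepatocyte growth factor, a ligand that mesenchyme usually supplies to epithelium), lies on the plus strand of chromosome 6 from 17463800 to 17573980 and had the lowest level of the 6 receptors. It had 11.3 FPKM with ALA and 14.6 FPKM untreated, a log2 ratio of -0.35 with an interval of -0.43 to -0.27. Its ligand gene Hgf had 3.65 FPKM with ALA and 5.48 FPKM untreated, a log2 ratio of -0.48 with an interval of -0.65 to -0.30. Receptor and ligand of this pair were both lower with ALA, and neither passed the 1.5-fold line. Over the 6 receptors the summed level was 183 FPKM with ALA and 223 FPKM untreated, with 1 receptor higher, 5 lower and a median log2 ratio of -0.22.

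Pdgfa encodes PDGF-A, which as a homodimer binds PDGFRα alone. It had 11.4 FPKM in the ALA library, against 6.79 FPKM in the untreated library, about 333 and 148 reads. It was 1.67-fold higher with ALA, with a log2 ratio of 0.67 and an interval of 0.42 to 0.91, and 4.47% of measured genes had a higher ratio. The lower end of the interval is below the 1.5-fold line of 0.58. With a pseudocount of 5 the ratio was 0.47, below the line, and with one of 0.1 it was 0.73. The ratio of Pdgfa FPKM to Pdgfra FPKM was 0.31 with ALA, with an interval of 0.278 to 0.346, and 0.118 untreated, with an interval of 0.10 to 0.139.

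Pdgfc, on the plus strand of chromosome 3 from 81036416 to 81214040, encodes PDGF-C, a ligand secreted with a domain that a protease must cut off before it can bind PDGFRα. It had 18.4 FPKM with ALA and 20.8 FPKM untreated, a log2 ratio of -0.17 with an interval of -0.26 to -0.07. Pdgfa made up 38.2% of the summed FPKM of Pdgfa and Pdgfc with ALA and 24.6% untreated, so Pdgfc had the higher FPKM in each library. Pdgfc FPKM was 0.502 of Pdgfra FPKM with ALA and 0.361 untreated. An antisense gene, Gm16000, covers 2.89% of the Pdgfc exon bases. Plat, which encodes tissue plasminogen activator, a protease that activates PDGF-C, had 28.1 FPKM with ALA and 37.2 FPKM untreated (log2 ratio -0.40).

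Fgf2 encodes basic FGF, a ligand without a classical secretion signal that is held by heparan sulfate outside the cell. It had 2.25 FPKM in the ALA library, against 4.87 FPKM in the untreated library, above 8.36% and 20.8% of measured genes. It was 2.17-fold lower with ALA, with a log2 ratio of -0.85 and an interval of -1.27 to -0.44. Fgf2 had the lowest level and the lowest ratio of the 10 genes, and 3.07% of measured genes had a lower ratio. With a mean of 3.56 FPKM it falls out under a filter of at least 5 FPKM. Its ratio moved to -0.45 with a pseudocount of 5, below the 1.5-fold line, and to -1.08 with one of 0.1.

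Judged by GENCODE vM21 transcripts cut at the locus ends, the deposited values of Fgf2 and Pdgfa rest on short stretches of their transcripts. The annotation the authors used is not given, so these lengths, and the read numbers and intervals that use them, are inferred. The deposited locus of Fgf2 runs from 37348653 to 37404830 on chromosome 3, whereas the annotated gene, on the plus strand, runs from 37348346 to 37410108. At most 695 bases of 1 annotated transcript lie inside that locus, 11.6% of the 5973 bp of the longest transcript, and the rest of its long last exon lies outside. The Fgf2 values therefore correspond to about 42 reads with ALA and 68 untreated. The deposited Fgf2 locus ends before Nudt6, the gene antisense to Fgf2, whose exons overlap the part of Fgf2 that lies outside. Nudt6 had 3.03 FPKM with ALA and 3.87 FPKM untreated (log2 ratio -0.27). The non-coding gene Gm43439, on the same strand, shares 18.3% of the Fgf2 exon bases inside the locus. For Pdgfa, on the minus strand of chromosome 5, the deposited locus from 138976972 to 138994953 holds at most 1087 of 2060 bases, 52.8%, and it shares 0 exon bases with other annotated genes. Each of the other 8 genes had over 97% of its longest transcript inside its locus, with 97.7% for Met the lowest.

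**Figure D4:**
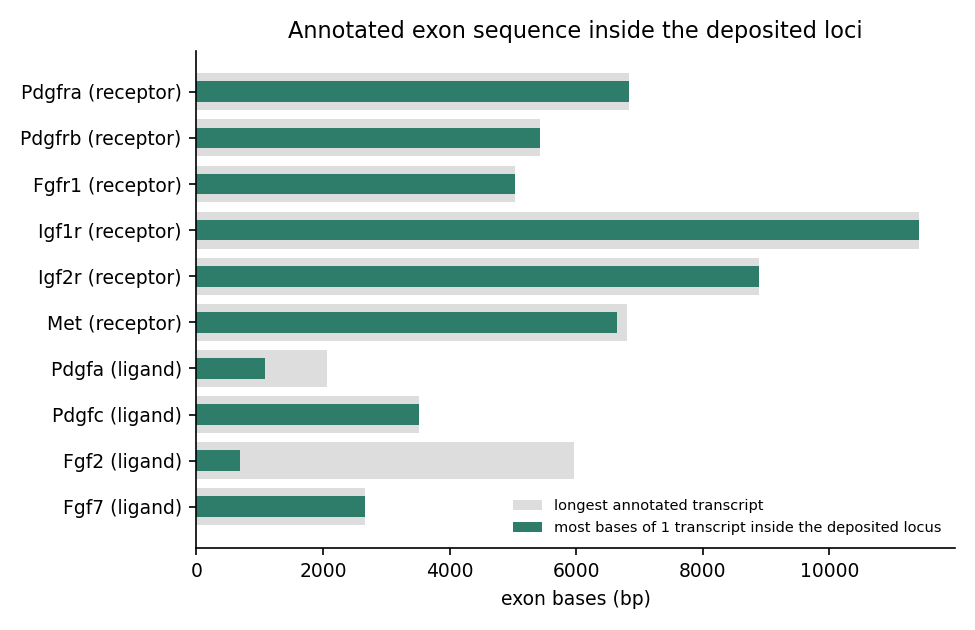
Length of the longest annotated transcript of each gene (grey bars, bp) and the most exon bases of 1 transcript that lie inside the deposited locus (green bars). Fgf2, with 695 of 5973 bp, and Pdgfa, with 1087 of 2060 bp, are the 2 genes whose locus leaves out a large part.

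Fgf7, on the plus strand of chromosome 2 from 126034658 to 126091185, encodes keratinocyte growth factor, which fibroblasts secrete and epithelial cells receive. It had 144 FPKM with ALA and 150.2 FPKM untreated, above 95.5% and 95.7% of measured genes, and was the highest of the 10 genes in both libraries. The log2 ratio was -0.06 with an interval of -0.10 to -0.02, and it became 0.02 when both libraries were scaled to equal total FPKM, so it has no stable direction. Fgf2 made up 1.54% of the summed FPKM of both FGF ligands with ALA and 3.14% untreated, and Fgf2 FPKM was 0.0297 of the FPKM of its receptor gene Fgfr1 with ALA and 0.0555 untreated. Galk2, in whose merged locus the table places Fgf7, had 42.6 FPKM with ALA and 45.8 FPKM untreated, and Fgf7 shares 0 exon bases with another annotated gene. Fgf10, a close relative of Fgf7 that acts on the same receptor form, had 21.2 FPKM with ALA and 25.5 FPKM untreated (log2 ratio -0.25). Over the 4 ligands the summed level was 176 FPKM with ALA and 183 FPKM untreated, most of it Fgf7.

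Within a library FPKM values can be compared between genes, since they are per transcript length. Those of Fgf2 and Pdgfa, as inferred from the locus ends, rest on at most 695 of 5973 and 1087 of 2060 bases. Their places in the order and their shares of a pair are therefore less certain than those of the other genes. In both libraries Fgf7, Fgfr1 and Pdgfra were the 3 highest, in that order, and Fgf2 was the lowest. The middle of the order changed. With ALA, Pdgfrb, Igf1r, Pdgfc and Igf2r followed, then Pdgfa and Met. In the untreated library Igf1r, Igf2r, Pdgfc and Pdgfrb followed, then Met and Pdgfa. Counting intervals of the ratio included 0 between Pdgfrb and Igf1r, Pdgfc and Igf2r, and Pdgfa and Met with ALA, and between all neighbours from Igf1r to Pdgfrb in the untreated library, so the order inside those groups is not resolved. Pdgfa was level with Met with ALA and below it untreated, by 1.11 on the log2 scale with an interval of 0.87 to 1.35.

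Genes of the same families and of the steps around the receptors were described by 9 lists, plotted as log2 ratios. Among 24 other ligands and receptors of the 4 families, 7 were measured, 2 higher and 5 lower with ALA, with a median of -0.17 and none at 1.5-fold. Pdgfrl, which encodes a secreted protein resembling a PDGF receptor, had the highest mean level of them, with 30.2 FPKM with ALA and 21.9 FPKM untreated (log2 ratio 0.45). The other 17 had a mean under 1 FPKM, and 6 of these were listed at 0 in both libraries.

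**Figure D5:**
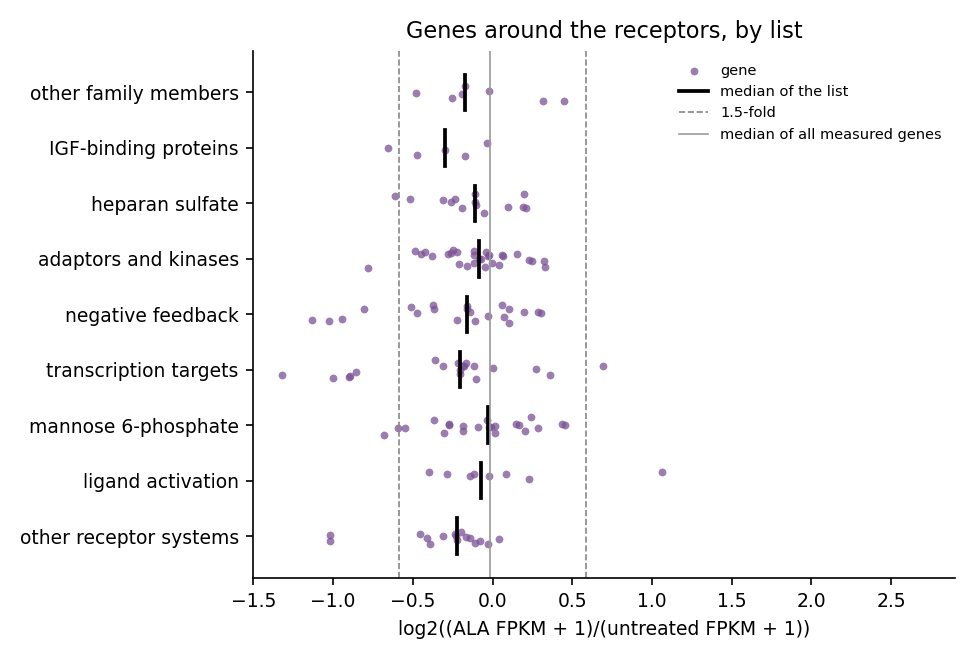
Log2 ratios of the measured genes of 9 lists (points) with the median of each list (black bars), the median of all measured genes (grey line, -0.02) and the 1.5-fold lines (dashed). The points left of the lower dashed line come mostly from the negative feedback list, with 4 of 21 genes, and the transcription target list, with 5 of 19.

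The IGF-binding proteins and the proteases that release IGFs had 5 of 12 genes measured, all lower with ALA, with a median of -0.30. Stc2, which encodes an inhibitor of one such protease, passed 1.5-fold, with 1.73 FPKM with ALA and 3.31 FPKM untreated (log2 ratio -0.66). This 1 gene is 20% of the 5, beside 7.16% of all measured genes past 1.5-fold downward. Igfbp6 and Igfbp4, the most abundant, were at -0.04 and -0.47. In the heparan sulfate list, whose products present FGFs to their receptors, 4 of 14 measured genes were higher and 10 lower, with a median of -0.11. Sulf1, an extracellular sulfatase that trims heparan sulfate, was the one gene past 1.5-fold, with 1.15 and 2.29 FPKM (-0.61), and it fell short of that line with equal library totals or a pseudocount of 5. Sulf1 alone is 7.14% of the 14 genes, beside 7.16% of all measured genes past 1.5-fold downward. The syndecans Sdc4 and Sdc2 were at -0.52 and -0.11.

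Of 29 measured adaptors, RAS proteins and kinases below the receptors, 8 were higher and 21 lower, with a median of -0.08. Irs2, a docking protein of the IGF and insulin receptors, was the one past 1.5-fold, with 5.04 FPKM with ALA and 9.36 FPKM untreated (log2 ratio -0.78). This 1 gene is 3.45% of the 29, beside 7.16% of all measured genes past 1.5-fold downward. Mapk3, which encodes the kinase ERK1, was at -0.16. Negative feedback genes, most of which growth factor signals induce and which damp the receptors or ERK, had 4 of 21 measured genes past 1.5-fold downward and 0 upward, or 19.05% and 0% beside 7.16% and 5.9% of all measured genes. These were Errfi1, an inhibitor of EGF receptors (-1.13), the ERK phosphatase Dusp4 (-1.03), the Sprouty protein Spry2, which damps FGF and PDGF signals (-0.95), and Dusp5 (-0.80), of whose exon bases an antisense gene covers 29.3%. The median was -0.16, and Grb10, the most abundant member, was at 0.06.

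Of 19 measured transcription targets of growth factors, 5 passed 1.5-fold downward and 1 upward, or 26.3% and 5.26% beside 7.16% and 5.9% of all measured genes, with a median of -0.21. The lower ones were Ier3, with 56.4 FPKM with ALA and 142 FPKM untreated, Egr1, with 12.3 and 25.7 FPKM, Fosl1 (log2 ratio -0.90), Egr2 (-0.89) and Phlda1 (-0.85), and the higher one was Vgf (0.69). Phlda1 and Vgf were named after their values were seen, and other genes cover 61.8% of the Fosl1 and 33.0% of the Phlda1 exon bases. The most abundant targets were Ier3 and Ccnd1, which encodes cyclin D1 and had 92.3 and 92.2 FPKM.

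The mannose 6-phosphate list holds the enzymes that tag lysosomal proteins for Igf2r and M6pr and the cargo they carry. Of 22 measured genes 9 were higher and 13 lower, with a median of -0.03 whose sign turned with equal library totals (0.05) and with equal upper quartiles (0.0017). Of these, 2 passed 1.5-fold downward, or 9.09% beside 7.16% of all measured genes. Among the 2 was Scarb2, a carrier of lysosomal glucocerebrosidase, at -0.60. The most abundant, Ctsl and Lamp1, were at -0.27 and -0.02. Among 8 measured genes for proteases and partners of the ligands, 3 were higher and 5 lower, with a median of -0.07, or 0.0073 with equal library totals. Pcsk7, a proprotein convertase of the furin family, had 9.91 FPKM with ALA and 4.22 FPKM untreated (1.06), and Rnf214 overlaps 7.98% of its exon bases. Pcsk7 was the 1 gene past 1.5-fold upward, or 12.5% of the 8 beside 5.9% of all measured genes. In the list of other receptor tyrosine kinases and ligands, 1 of 16 measured genes was higher and 15 lower, with a median of -0.23, and 2 of them, or 12.5% beside 7.16% of all measured genes, passed 1.5-fold downward. These were the EGF receptor ligands Hbegf and Ereg, both at -1.02.

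Fibroblast markers were present as the label says, with 8 of 10 measured, Col1a1 at 980.2 and 1047 FPKM and Vim at 1896 and 2272 FPKM with ALA and untreated. Dcn and Thy1 were at least 1.5-fold lower with ALA (log2 ratios -0.95 and -0.62), or 25% of the 8 beside 7.16% of all measured genes. All 8 were lower, with a median of -0.23, and Col1a1 and Col1a2 were at -0.10 and -0.14. The other 2 markers, Fap and Lum, were listed at 0 in both libraries. Adipocyte markers were all listed at 0, and the 6 endothelial markers summed to 0.939 FPKM with ALA and 0.395 FPKM untreated. The 7 macrophage and leukocyte markers summed to 17.1 and 28.96 FPKM, mostly from Lyz2 and Cd14, with Ptprc at 0.754 and 0.367 FPKM and Emr1 at 0.0113 and 0 FPKM. Of 8 epithelial markers, 2 were measured, Krt14 with 114 and 84.2 FPKM and Cdh1, which was lower with ALA, with 0.944 and 1.23 FPKM, and Epcam was listed at 0, and the 8 mural and muscle markers summed to 362 and 296 FPKM. That sum is mostly Acta2 (304 and 232 FPKM), the 1 of 4 measured mural and muscle markers that was higher with ALA, while the other 3 were lower, among them Cspg4 at -0.24. The part of these differences in the growth factor genes was not tested. Outside these lists, the gene Srrd had 9.76 FPKM with ALA and 2.11 FPKM untreated. Whether that difference is an effect of ALA was not tested.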

How the data were processed

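Per the file headers, the authors deposited a Cufflinks tracking table with 1 FPKM value per gene and library. Submitters' processing notes name FastQC 0.11.5, TopHat2 2.1.1, Cufflinks 2.2.1 and build mm10. Which annotation, options, strand setting and scaling were used is not given in the sources used here. The deposited interval bounds were equal in 100% of rows and carry no error. Libraries were TruSeq RNA, single-end reads of 41 bp, per the labels' protocols.

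Log2 ratios used a pseudocount of 1 FPKM and were computed for all genes with pandas 2.3.3 and numpy 2.4.6. Depth was fitted on 147 low values of genes with 1 annotated transcript over 1500 bp, with a relative depth of 1.35 from 461 low genes. Nearly as good fits ran from 25700000 to 28700000 reads for ALA and 19100000 to 21300000 untreated. At the relative depth chosen, 23.0% of the ratios of low values were near ratios of small whole numbers. The median over the relative depths tried was 12.1%. Approximate reads are FPKM times depth times the most exon bases of 1 transcript in the deposited locus. Gene models came from GENCODE vM21, where 21557 genes (94.4%) matched by symbol and position.

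Members and lists were chosen with earlier results of these data known. Named are all 10 genes and, per list, up to 4 genes past 1.5-fold with the largest ratios and the 2 most abundant; genes that overlap or neighbour the 10 are also named, and other genes were named after their values were seen. A few list genes within the rule are not reported here. No gene is named for a similar pattern, since 2 libraries give 1 ratio per gene.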

Additional observations from a re-analysis of the deposited data

How the results depend on the processing

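No paired analysis was possible because each group has 1 library, and for the same reason no library could be left out. Among the 10 growth factor genes, 1 was called higher and 2 lower. With a pseudocount of 5 these counts were 0 and 1, with equal library totals 1 gene was called lower, with a mean of at least 5 FPKM 1 gene was called lower, and at 2-fold both counts were 0. A pseudocount of 0.1, a median ratio of 0, equal upper quartiles and no filter gave 1 and 2. Equal totals multiply the ALA library by 1.06, and 56.9% of the calls over all measured genes were then upward, beside 45.2% as deposited (848 higher and 642 lower, beside 645 and 782). Over all genes a pseudocount of 5 gave 194 higher and 299 lower, and a mean of at least 5 FPKM 349 and 447. With a pseudocount of 5, the lower counts became 0 for the IGF-binding, heparan sulfate and adaptor lists and 1 for the mannose 6-phosphate list, and the higher count of transcription targets became 0. A mean of at least 5 FPKM gave 0 lower for the IGF-binding and heparan sulfate lists and 0 higher for transcription targets. Equal totals gave 0 lower for heparan sulfate, and every scaling gave 1 lower for mannose 6-phosphate. With no filter 1 further gene was called lower among other family members and 1 higher among adaptors, and the lower count of transcription targets was 6. That lower count was 4 with a pseudocount of 5 or a mean of at least 5 FPKM, beside 5 in the main setting. The lower count of negative feedback genes was 3 with a pseudocount of 5, beside 4. The Fgf2 share of the FGF ligands with ALA was 2.19% after adding 1 to each FPKM. Depth limits Fgf2 most, with about 42 and 68 reads.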
